A study of Mus musculus with 16 samples.

Results

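The genes described here reached a mean of 2 RPKM or more in both groups of libraries labelled IHC and stayed at or under 0.1 RPKM, the background level of the study, in both groups labelled OHC. RPKM is the read count of a gene scaled to the length of its exons and to the depth of the library. Of 49585 genes in the table, 8272 had 2 RPKM or more in both IHC groups, and 55 of these met the OHC limit. The members were thus chosen on their difference between IHC and OHC libraries, which is given as a description and was not tested. Genes of chromosome Y were left out, and the cap of 300 genes was not reached. The opposite rule (2 RPKM or more in both OHC groups, 0.1 or less in both IHC groups) was met by 28 genes.

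IHCs and OHCs are the inner and outer sensory hair cells (HCs) of the organ of Corti. IHCs pass sound-evoked signals to the afferent fibers of the auditory nerve, whereas OHCs change their length and amplify the vibration of the cochlear partition. The study asked how both types change with biological age. Cells were picked by morphology with a suction pipette from cochleae of CBA mice (CBA/J in the methods of the study) of 9 or 26 months and of either sex, about 1000 cells per sample pooled from 6 to 18 mice by the description of the series, with no transgene or treatment. Each of the 4 groups, named by age and cell type in the labels, held 4 libraries. Where 4 group values follow each other, those of 9m IHC and 26m IHC come first, then those of 9m OHC and 26m OHC.

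Mapped reads, recovered from the steps of the RPKM values, came to 28826644 to 31243721 per library in 9m IHC, 23161311 to 25617032 in 26m IHC, 19666190 to 21030345 in 9m OHC and 19990435 to 21226800 in 26m OHC. Within a group, library 1 matched library 2 and library 3 matched library 4 to within counting noise. Their chi-square per gene averaged 0.982 to 1.08 over these 8 pairs, whereas the other 16 pairs reached 2.70 to 3.44. The mean of a matched pair was therefore used as 1 sample, so that n = 2 per group for every SD and test, and p-values measure only the spread between these samples, which may be technical.

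The markers of the cell types did not follow all labels. The summed RPKM of 12 OHC markers such as Slc26a5 and Ocm was 89.7 to 94.2 in 9m IHC, 15853 to 16049 in 26m IHC, 128 to 133 in 9m OHC and 1234 to 1248 in 26m OHC. The sum of 8 IHC markers such as Otof and Slc17a8 was 1476 to 1524, 37.2 to 38.1, 759 to 764 and 227 to 232. The libraries labelled 26m IHC therefore carried the highest OHC marker sum and the lowest IHC marker sum. Under a swap of these 2 labels (26m IHC with 9m OHC), the 55 genes would be high at 9 months and near 0 at 26 months in both cell types, so that cell type and age cannot be told apart for their split. Groups are named by their labels throughout. Without the 26m IHC and 9m OHC libraries, 278 genes met the remaining conditions of the rule, and these include the 55 by construction. In samples of bulk RNA, fewer cells of a type and less RNA per cell cannot be told apart.

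The 55 genes were of modest abundance in IHC libraries. The lower of the IHC group means had a median of 3.06 RPKM over the 55 genes. In 25 genes it was under 3 RPKM and in 6 it was 10 RPKM or more. The lowest value of any member in any IHC library was 1.62 RPKM, and 48 members stayed at 2 RPKM or more in all IHC libraries. In OHC libraries, 16 members were at 0 in all 8 libraries and 45 were at 0.1 RPKM or less in each of them. The remaining 10 passed 0.1 RPKM in at least 1 OHC library, with a highest value of 0.209 RPKM. All members were higher in each IHC library than in any OHC library, as were 50.7% of the 8272 genes. All 55 were called lower in OHC libraries at both ages, an outcome that the rule fixed. At 9 months 65.8% of all genes tested were called in either direction and 48.5% lower, and at 26 months 63.5% and 34.4%. Over the 8 OHC libraries together a member had a median of 3 reads, 33 members had 3 reads or fewer and the highest total was 67 reads. A count of 0 over 4 OHC libraries allows, at 3 reads, 0.00432 to 0.0846 RPKM depending on the length of the gene, for counting error only. Reads and these levels rest on gene lengths recovered as those that made the reads of every library whole. The recovered length equaled the union of exons in 46 members. A multiple of the true length would also give whole reads, which would overstate reads and understate these levels. This was not tested.

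**Figure D1:**
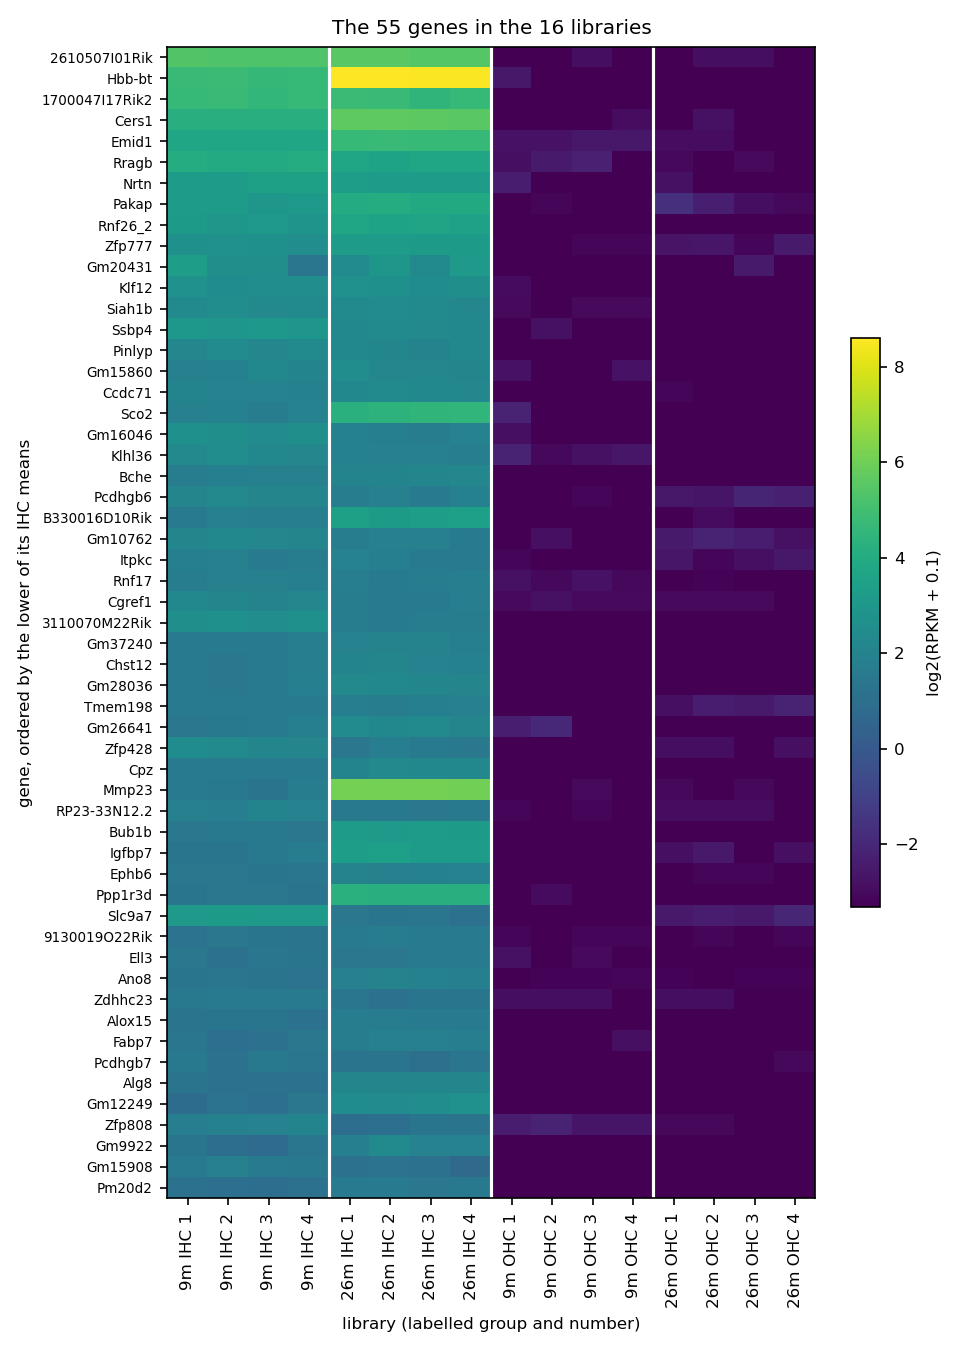
Each row is 1 of the 55 genes and each column 1 of the 16 libraries, with color for log2(RPKM + 0.1); white lines separate the labelled groups. All rows are brighter in the 8 IHC columns than in the 8 OHC columns, and rows such as Mmp23, Hbb-bt and Sco2 are brighter in 26m IHC than in 9m IHC.

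Reads that lie within a stretch that 2 genes share cannot be told apart by sequence, so stretches that members shared with other genes, or nearly so, are shown first. All sequences shown are those of the reference GRCm38, and those of the CBA mice were not examined. In the reference, Hbb-bt, an adult beta-globin gene, and its neighbor Hbb-bs differ at 1 of 441 coding bases (stop codon left out). The 75-base windows around that base, on the minus strand of GRCm38 at chr7:103812683-103812757 and chr7:103826692-103826766, carry it in capitals.
Hbb-bt: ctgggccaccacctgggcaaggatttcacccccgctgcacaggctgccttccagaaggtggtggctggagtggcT
Hbb-bs: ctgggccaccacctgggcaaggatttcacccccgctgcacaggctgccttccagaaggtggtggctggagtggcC

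Siah1b and Siah1a encode RING-type ubiquitin ligases and lie on different chromosomes. They are 97.0% identical over 846 coding bases, and their closest windows that are not identical lie on the minus strand at chrX:164071930-164072004 and chr8:86725702-86725776. The base that differs is in capitals.
Siah1b: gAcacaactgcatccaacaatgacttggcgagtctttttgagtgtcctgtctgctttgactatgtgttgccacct
Siah1a: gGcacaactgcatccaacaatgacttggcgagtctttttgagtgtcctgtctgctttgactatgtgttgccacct

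1700047I17Rik2 and Fam177a have the same 621 coding bases. Their first 75 bases, on the plus strand at chr12:55199706-55199780 and chr12:55124642-55124716, have no capitals because none differ.
1700047I17Rik2: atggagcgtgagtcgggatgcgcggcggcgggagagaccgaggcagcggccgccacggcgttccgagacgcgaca
Fam177a: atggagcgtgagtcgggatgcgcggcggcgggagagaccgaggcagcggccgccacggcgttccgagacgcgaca

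Gm20431 is a read-through model that joins exons of Tmem189 to exons of Ube2v1, the latter a ubiquitin-conjugating enzyme variant. Its junction is shown with 30 bases of the Tmem189 part (minus strand, chr2:167644764-167644793) in lower case and 30 bases of the Ube2v1 part (chr2:167617948-167617977) in capitals. Of all genes in the GENCODE annotation, 1 has a transcript with these 60 bases, namely Gm20431.
Gm20431: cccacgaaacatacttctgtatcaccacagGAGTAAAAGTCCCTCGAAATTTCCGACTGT

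Shared sequence and overlap were then measured over all members. Along the longest transcript of each gene, 75-base windows were taken every 25 bases and searched in the transcripts of all other genes on either strand. At least 20% of the windows were shared in 16 members (29.1%) and in 955 of the 8209 other annotated genes at 2 RPKM or more in both IHC groups (11.6%). No window was shared in 31 members (56.4%) and in 61.4% of the other genes. Exons overlapped exons of another gene on the same strand in 11 members (20%), against 7.97% of the other genes, while overlap on either strand was alike (20 members, 36.4%, against 36.2%). Read-through transcripts occurred in 4 members (7.27%, Pakap, Gm20431, Gm37240 and Gm28036) and in 37 of the other genes (0.451%). Of the 55 members, 29 had neither shared windows nor an exon overlap, among them Klf12, Ssbp4, Rragb, Nrtn, Emid1 and Bub1b.

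Several partners of the members were abundant in the OHC libraries in which the member was near 0. Gm20431 had 9.75, 5.80, 5.80 and 2.47 RPKM in 9m IHC, 5.36, 7.85, 5.16 and 8.36 in 26m IHC, 0 in each library of 9m OHC, and 0, 0, 0.0845 and 0 in 26m OHC. Its partner Ube2v1, which shares 69.6% of the windows of Gm20431, had means of 101, 139, 107 and 130 RPKM in the same order of groups. The member thus spread widely within 9m IHC, while the gene that holds most of its sequence differed little between the groups. Tmem189, the other part, had 42.2, 22.1, 3.30 and 13.4 RPKM. Pakap, which reads through Palm2 and Akap2 (an anchor of protein kinase A), had 7.94 to 9.64 RPKM in 9m IHC, 15.1 to 16.5 in 26m IHC, 0 to 0.0169 in 9m OHC and 0.0177 to 0.209 in 26m OHC. Akap2, which holds 90.7% of its windows, had 4.74, 10.4, 8.04 and 13.1 RPKM. Gm37240 shared 76.3% of its windows with Arfip1, a binding partner of ARF GTPases, which had 14.5, 7.75, 10.7 and 7.29 RPKM. Gm37240 itself had 3.05 and 3.77 RPKM in the IHC groups and 0 in all OHC libraries. In all 3 cases the read-through model was at or near 0 in OHC libraries while its overlapping gene was not.

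1700047I17Rik2 had 25.1, 26.8, 23.8 and 25.2 RPKM in 9m IHC, 27.9, 26.5, 22.6 and 25.3 in 26m IHC, and 0 in all 8 OHC libraries. Fam177a, with which it shares all 152 windows, had 39.2, 26.3, 16.6 and 4.60 RPKM. For this pair the table holds values in OHC libraries for only 1 of the genes, although their coding bases are identical. Hbb-bt had 24.7 to 27.6 RPKM in 9m IHC, 377 to 390 in 26m IHC, 0 to 0.0681 in 9m OHC and 0 in 26m OHC, and Hbb-bs had means of 89.5, 1674, 7.75 and 4.61. Siah1b had 4.88 to 5.65, 4.45 to 5.31, 0 to 0.0240 and 0 RPKM, whereas Siah1a had 55.8, 52.1, 17.1 and 12.6.

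At the loci of Cers1 and Rnf26_2 the member was near 0 in OHC libraries, while its partner was higher in OHC than in IHC libraries. How reads were assigned between the genes was not tested. Cers1, a ceramide synthase, shares a locus with Gdf1, a growth and differentiation factor of the TGF-beta superfamily, and 47.7% of its windows. Cers1 had 18.6, 17.9, 18.0 and 17.7 RPKM in 9m IHC and 49.8, 50.2, 48.7 and 47.5 in 26m IHC. It had 0, 0, 0 and 0.0316 in 9m OHC and 0, 0.0446, 0 and 0 in 26m OHC. Gdf1 was at 0 in both IHC groups and at 0.366 and 1.34 RPKM in the OHC groups. Rnf26_2 and Rnf26_1 are both entries of the RING-type ubiquitin ligase Rnf26. Rnf26_2 had 7.22 to 8.93 and 11.3 to 13.1 RPKM in the IHC groups and 0 in all OHC libraries, while Rnf26_1 had 0.225, 0.331, 1.35 and 1.70. The levels of the partner in OHC libraries were lower than those of the member in IHC libraries at both loci.

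Other members overlapped a gene on the opposite strand, and whether strand was used in counting is not given in the sources used here. Gm15908, an antisense gene with 3.08, 2.03, 0 and 0 RPKM, overlaps Pxdc1, which had 457, 365, 795 and 268. Sco2, a copper chaperone of cytochrome c oxidase, shares 64.6% of its windows with Ncaph2, a condensin subunit on the other strand at 26.6, 35.1, 15.01 and 26.4 RPKM. Itpkc, an inositol trisphosphate kinase, had 3.29, 3.23, 0.00328 and 0.0471 RPKM and shares 37.8% of its windows with BC024978, at 2.08, 1.34, 5.70 and 7.38. BC024978 was thus also higher in OHC than in IHC libraries, and above the IHC levels of Itpkc. Values of these members are uncertain to the extent that reads of the partner were counted for them, which was not tested.

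**Figure D2:**
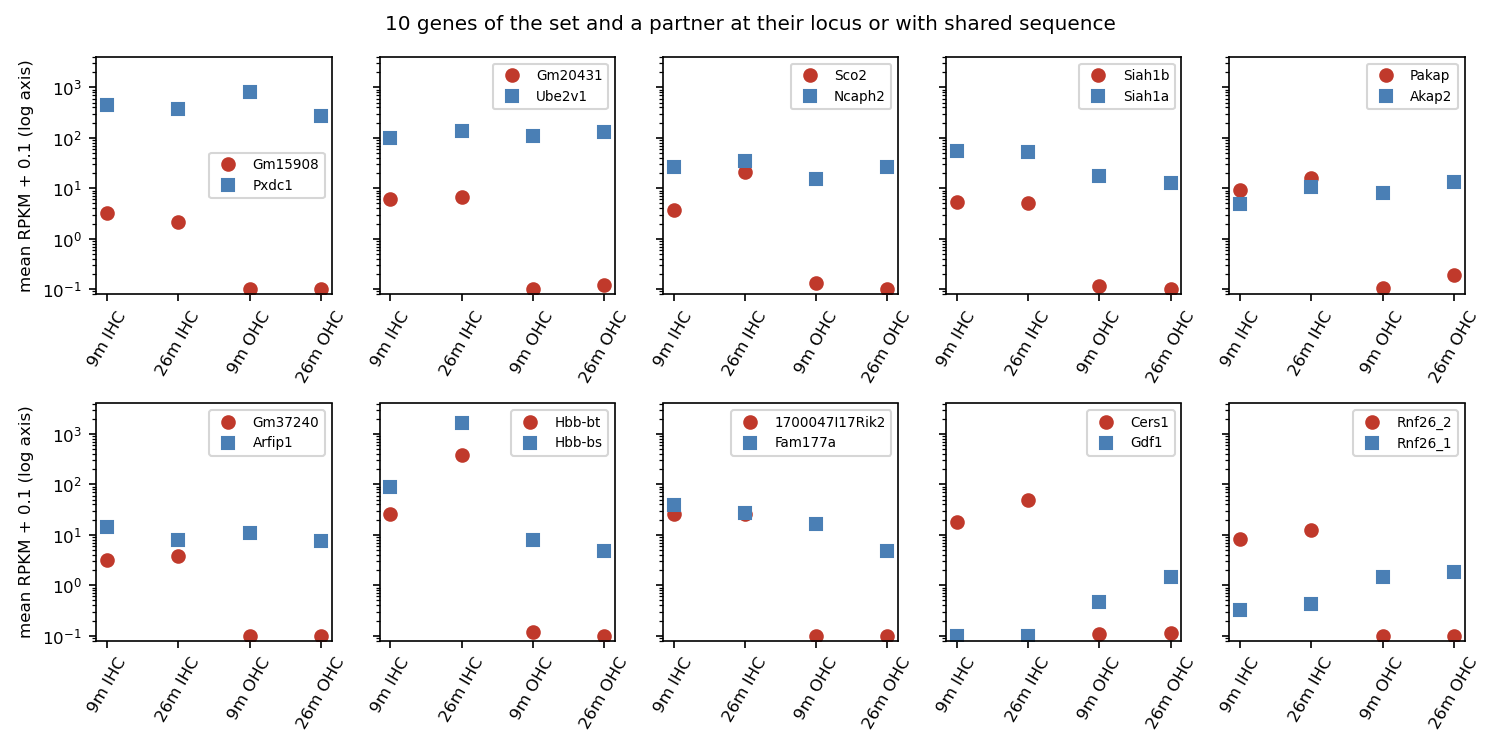
Group means of 4 libraries (RPKM + 0.1, log axis) for 10 members (circles) and 1 partner each that overlaps them or shares their sequence (squares), by labelled group. The members drop to about 0.1 in both OHC groups, whereas Ube2v1 stays between 101 and 139 RPKM, and Gdf1 and Rnf26_1 are higher in OHC than in IHC libraries.

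The members were shorter than the other genes at 2 RPKM or more in both labelled IHC groups. The union of their exons had a median of 2454 bases, against 4171 for the 8209 other genes, and the longest transcript 2258 against 3141. The members had a median of 5 exons and the other genes 9. The 8264 annotated genes at 2 RPKM or more in both IHC groups were split into quartiles by length. In the shortest quartile (183 to 2650 bases), 29 genes or 1.40% met the rule. The share was 0.629% in the next, 0.436% in the third and 0.194% in the longest (6303 to 41155 bases, 4 genes). The 43 members whose lower IHC mean was under 5 RPKM had a median of 2362 bases, against 5171 for the other genes under that level. At a given number of reads a short gene has a higher RPKM. At 3 reads over 4 libraries the shortest member, Gm9922 (435 bases as the RPKM values were scaled), stood at 0.0846 RPKM in 9m OHC, and the longest, Pakap (8456 bases), at 0.00435. The next shortest were Hbb-bt (703 bases) and Gm12249 (719), and the next longest Klf12 (7424) and Ano8 (6847).

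**Figure D3:**
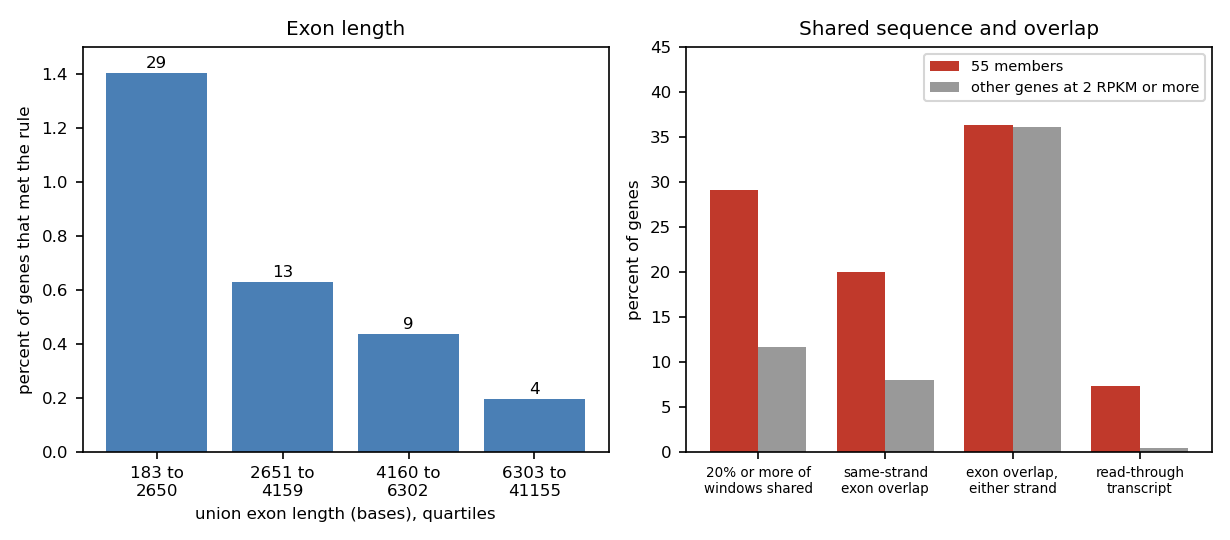
Left, percent of genes at 2 RPKM or more in both IHC groups that met the rule, by quartile of union exon length in bases, with the number of members above each bar. Right, percent of the 55 members and of the other genes that share windows, overlap exons or have read-through transcripts. The share falls from 1.40% to 0.194% with length, and 29.1% of members against 11.6% of other genes share 20% or more of their windows.

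Protein-coding genes made up 47 members (85.5%) and 97.9% of the other genes. The other members were 3 lincRNAs, 2 antisense genes, 1 processed transcript and 2 pseudogenes. Names given to unnamed clones or models (Gm or Rik) were borne by 15 members (27.3%) and by 4.24% of all genes at 2 RPKM or more in both IHC groups. The member with the highest lower IHC mean was such a gene, the noncoding 2610507I01Rik (chr11:59199836-59202385). It had 41.8, 40.2, 40.4 and 40.4 RPKM in 9m IHC, 47.5, 46.4, 44.5 and 44.0 in 26m IHC, 0, 0, 0.0374 and 0 in 9m OHC, and 0, 0.0346, 0.0368 and 0 in 26m OHC. Its 8 OHC libraries held 1 read in 9m OHC and 2 reads in 26m OHC, against 6637 and 6049 reads in the IHC groups. It shared no window with any other gene. By class of symbol, 3 members (5.45%) were zinc finger genes (Zfp777, Zfp428 and Zfp808), against 2.67% of all genes at 2 RPKM or more in both IHC groups. No member was a gene of a cytosolic or mitochondrial ribosomal protein, which made up 1.05% and 0.931% of those genes. The members lay on all chromosomes but Y and 19, with 6 each on chromosomes 2 and 7 as the highest number.

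Klf12, Ssbp4 and Rragb are members that the study names. Klf12 (ENSMUSG00000072294, chr14:99874486-100149764), a Krüppel-like zinc finger repressor of transcription, had 6.49, 5.50, 5.70 and 5.62 RPKM in 9m IHC and 6.52, 6.35, 5.49 and 6.03 in 26m IHC. It had 0.0258, 0, 0 and 0 in 9m OHC and 0 in all libraries of 26m OHC, where 3 reads would be 0.00492 RPKM. The IHC groups overlapped and their difference did not pass the test (log2 fold change 0.06 ± 0.07 SE, limma adjusted p = 0.409). Ssbp4 (ENSMUSG00000070003, chr8:70597490-70608872) belongs to the single-stranded DNA-binding proteins that join LIM-domain factors through Ldb adaptors. It had 8.08, 7.49, 8.06 and 7.64 RPKM in 9m IHC, 4.72, 4.89, 4.87 and 4.61 in 26m IHC, 0, 0.0451, 0 and 0 in 9m OHC and 0 in 26m OHC. The 26m IHC libraries were all lower than those of 9m IHC, by less than the fold required for a call (log2 fold change -0.70 ± 0.03 SE). Rragb (ENSMUSG00000041658, chrX:153139981-153171943) encodes a Rag GTPase, which recruits mTORC1 to the lysosome in response to amino acids. It had 16.6, 15.6, 15.8 and 16.4 RPKM in 9m IHC, 12.8, 12.1, 13.2 and 13.1 in 26m IHC, 0.0424, 0.0842, 0.113 and 0 in 9m OHC, and 0.0212, 0, 0.0222 and 0 in 26m OHC. Its 26m IHC libraries were lower than those of 9m IHC by a log2 fold change of -0.33 ± 0.04 SE, which is also under the fold required.

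Taf9, a subunit of the general transcription factor TFIID that had been put forward as a marker of these genes, did not meet the rule. Its group means were 2.26, 1.21, 0 and 0.0472 RPKM, so that it was under 2 RPKM in 26m IHC. Ak6, an adenylate kinase that shares the locus of Taf9, had 35.7, 30.1, 39.9 and 34.6 RPKM. Nearest inside the OHC limit were Slc9a7, Pcdhgb6 and Pakap with 0.0960, 0.0943 and 0.0907 RPKM in 26m OHC. Nearest outside it were Gm1976 (0.110 in 9m OHC), Ppp1r17 (0.111 in 26m OHC) and Sugct (0.113 in 26m OHC). At the IHC limit, Pm20d2 (2.01 in 9m IHC), Gm15908 (2.03 in 26m IHC) and Gm9922 (2.11 in 9m IHC) were just inside. C330013E15Rik (1.95 in 9m IHC), B4galt2 (1.94 in 26m IHC) and Alas2 (1.92 in 9m IHC) were just outside. Of the 8272 genes, 246 were at 0.1 RPKM or less in 9m OHC, 156 in 26m OHC and 55 in both.

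The residual OHC reads differed between the OHC groups in some members. Pakap had 3 reads in 9m OHC and 64 in 26m OHC, the latter with 37, 18, 6 and 3 reads per library and 27 in all without library 1. Its 26m OHC mean passed 0.1 RPKM without library 3 (0.109) or without library 4 (0.115). Pcdhgb6, a gamma-protocadherin, which are adhesion proteins of neurons, had 1 and 36. Slc9a7, a sodium-proton exchanger of the Golgi, had 0 and 30, and Tmem198, a membrane protein, 0 and 17. In the opposite direction, Zfp808 had 36 and 4 reads, Rnf17 14 and 1, and Klhl36 12 and 0. All these counts carry the uncertainty of the recovered lengths given above. Like Pakap, Slc9a7 and Pcdhgb6 passed 0.1 RPKM in 26m OHC when some libraries were left out. Slc9a7 did so without library 1 (0.103) or library 3 (0.102), and Pcdhgb6 without library 1 (0.102) or library 2 (0.106). No member reached the 0.1 RPKM on average that the OHC age comparison required at 1 age, so none was tested there, against 14843 other genes of which 49.6% were called.

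The IHC age comparison used libraries of 1 labelled cell type and was not the contrast of the rule, although the rule asked for 2 RPKM at both ages. The OHC markers summed to 89.7 to 94.2 RPKM in 9m IHC and 15853 to 16049 in 26m IHC. The IHC markers summed to 1476 to 1524 and 37.2 to 38.1. Under the label swap named above, these groups would be 2 cell types at 9 months. Age and cell type can thus not be told apart in this comparison either. Of 15711 genes tested, 14.1% were called higher and 18.6% lower in 26m IHC than in 9m IHC (limma on log2(RPKM + 0.1), where a call needs an adjusted p no higher than 0.1 with a log2 change of 1 or beyond, up or down). Of the 55 members, 9 were higher and 1 was lower. The nearer background is the 8272 genes at 2 RPKM or more in both IHC groups, of which 6.81% were higher and 9.37% lower. The median log2 fold change was 0.29 over the members and -0.06 over the other 8217 genes. By mean RPKM, 35 members were higher in 26m IHC. Scaling by median ratios moved the median of all genes tested from -0.09 to 0.11, and 13 members were then higher and 1 lower, against 2525 higher and 2347 lower of all 15393 genes tested under that scaling. The libraries of the IHC groups did not overlap in 44 members (80%), against 84.2% of the 8272 genes.

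Mmp23, a membrane-anchored matrix metalloproteinase, rose most. It had 2.84, 2.71, 2.30 and 3.09 RPKM in 9m IHC and 69.3, 69.7, 69.1 and 67.5 in 26m IHC (log2 fold change 4.61 ± 0.03 SE, limma adjusted p = 8.34e-08). Its OHC libraries held 1 read in 9m OHC and 2 in 26m OHC, so that a level of 69 RPKM occurred in 1 group alone. Hbb-bt rose by 3.87 ± 0.04 SE on the same log2 scale. The summed RPKM of 6 red cell markers, which include Hbb-bt and Hbb-bs, rose with it, from 401 to 407 in 9m IHC to 5920 to 6149 in 26m IHC, against 12.0 to 14.3 in 9m OHC and 17.4 to 19.9 in 26m OHC. The part of red cells in the values of Hbb-bt was not tested. Ppp1r3d, a subunit that directs protein phosphatase 1 to glycogen, had 2.41, 2.61, 2.63 and 2.31 RPKM in 9m IHC and 18.7, 18.5, 18.4 and 18.5 in 26m IHC (log2 fold change 2.85 ± 0.03 SE, limma adjusted p = 2.40e-07). Sco2 had 3.52, 3.70, 3.28 and 3.87 RPKM in 9m IHC and 18.8, 21.1, 22.2 and 23.4 in 26m IHC (2.54 ± 0.07 SE). Its opposite-strand partner Ncaph2 stood at 26.6 and 35.1 RPKM in these groups, and Tymp, which overlaps it on its own strand, at 1.98 and 2.92.

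Igfbp7, a secreted protein that binds insulin-like growth factors, had 2.39, 2.38, 2.70 and 3.17 RPKM in 9m IHC and 9.95, 10.7, 9.29 and 9.32 in 26m IHC (log2 fold change 1.85 ± 0.11 SE, limma adjusted p = 3.83e-05). Bub1b, a kinase of the mitotic spindle checkpoint, had 2.65, 2.70, 2.76 and 2.56 RPKM in 9m IHC and 9.196, 8.75, 9.36 and 9.07 in 26m IHC (1.73 ± 0.04 SE). It was at 0 in all 8 OHC libraries. At its recovered length, its lower IHC mean was at least 309.9-fold higher than the level of 3 reads over 4 OHC libraries. Cers1 rose by 1.44 ± 0.03 SE, the pseudogene B330016D10Rik by 1.598 ± 0.04 and the lincRNA Gm12249 by 1.38 ± 0.08. Slc9a7 was the only member called lower, from 8.61, 8.88, 8.38 and 8.76 RPKM in 9m IHC to 2.55, 2.37, 2.51 and 2.17 in 26m IHC (log2 fold change -1.81 ± 0.04 SE, limma adjusted p = 1.85e-06). In 26m OHC it had 0.0752, 0.0864, 0.0786 and 0.144 RPKM, and in 9m OHC 0 in each library. Of the 29 members with neither shared windows nor an exon overlap, 5 were called higher and 1 lower. Among the 8272 genes at 2 RPKM or more in both IHC groups, 6.81% were higher and 9.37% lower. Marker sums of other cells also differed between the IHC groups. Macrophage markers summed to 2.86 to 3.36 RPKM in 9m IHC and 51.6 to 54.7 in 26m IHC, eosinophil and neutrophil markers to 0.0387 to 0.0925 and 433 to 448, and fibrocyte and stria markers to 45.5 to 46.9 and 149 to 152. Neuron markers instead summed to 3358 to 3384 RPKM in 9m IHC and 281 to 288 in 26m IHC, and supporting cell markers to 1116 to 1124 and 453 to 461. Their part in the called differences was not tested.

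**Figure D4:**
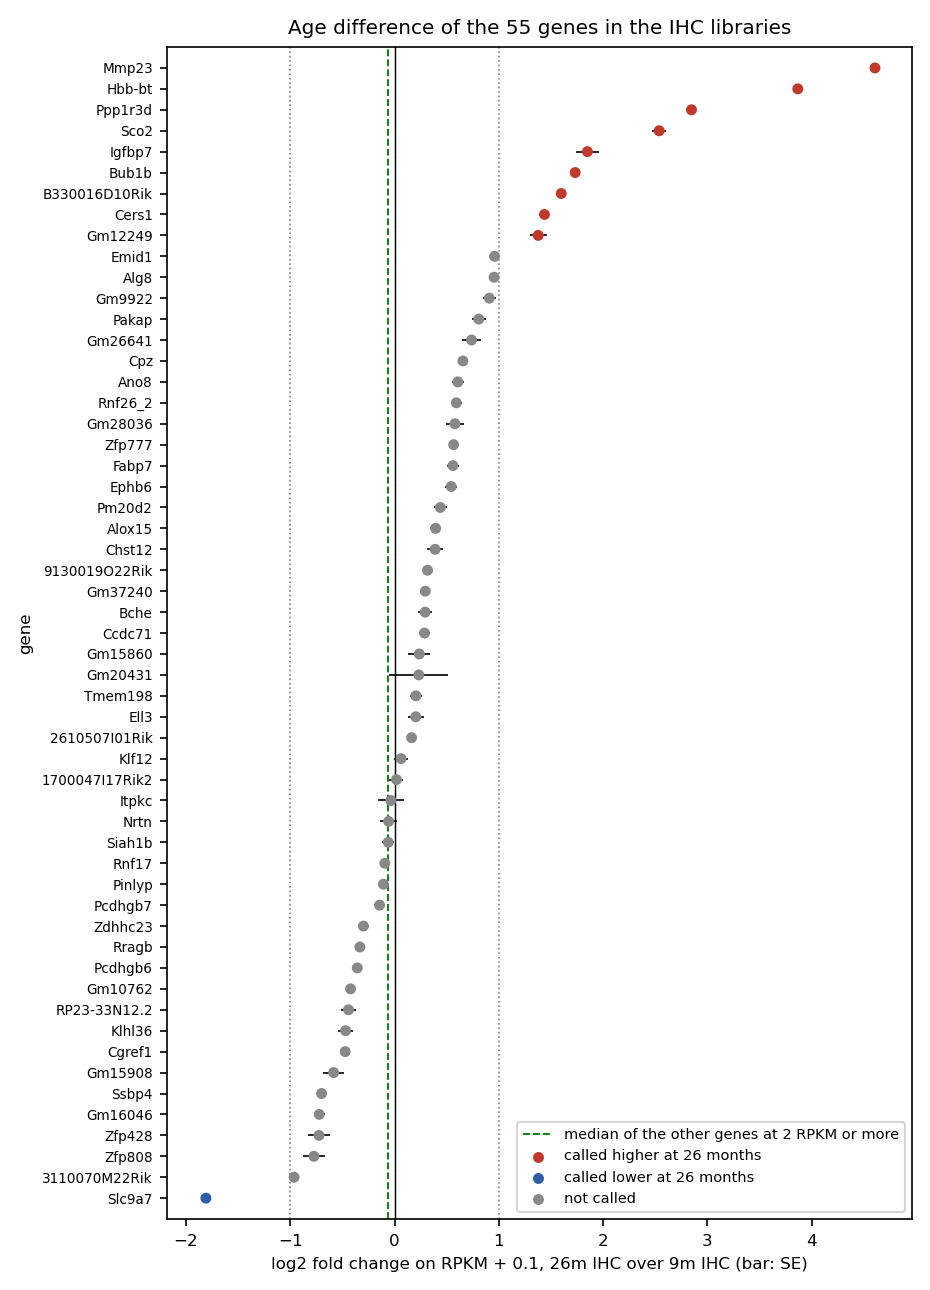
Log2 fold change (RPKM + 0.1) of each of the 55 members in 26m IHC over 9m IHC with its SE, n = 2 averaged samples per group, sorted by size. Red points were called higher (9 genes, Mmp23 at 4.61 the largest), the blue point lower (Slc9a7 at -1.81), dotted lines mark a fold change of 1 on the log2 scale, and the dashed line the median of the other genes at 2 RPKM or more (-0.06).

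The remaining members were described by role. Among secreted or extracellular proteins, Nrtn, a ligand of the GDNF family, had 9.14 to 10.9 RPKM in 9m IHC and 9.34 to 10.02 in 26m IHC, and Emid1, a protein with an EMI domain, 12.8 to 13.4 and 25.04 to 26.1. Nrtn had at most 0.0936 RPKM and Emid1 at most 0.0704 in any OHC library. Bche, the butyrylcholinesterase, had group means of 3.45 and 4.25 RPKM in the IHC groups, and Cpz, a carboxypeptidase, 2.84 and 4.54, and both were at 0 in all OHC libraries. Among enzymes, Alg8, a glucosyltransferase of N-glycan assembly, had 2.19 and 4.33 RPKM. Chst12, a chondroitin sulfotransferase, had 3.001 and 3.96, and Alox15, a lipoxygenase, 2.31 and 3.06, and all 3 were at 0 in all OHC libraries. Among surface proteins, Ephb6, a kinase-inactive ephrin receptor, had 2.55 and 3.75 RPKM in the IHC groups. Pcdhgb6 and Pcdhgb7 had 4.38 and 3.39, and 2.53 and 2.28, and share 48.1% and 59.7% of their windows with other genes, mostly of the gamma-protocadherin cluster. Pcdhgc4 of that cluster had 0.225, 5.20, 5.47 and 11.6 RPKM. Fabp7, a fatty acid-binding protein of glia, had 2.30 and 3.44 RPKM in the IHC groups, and Rnf17, a germ cell protein, 3.43 and 3.21. Zfp777, a zinc finger gene, had 6.16 and 9.17 RPKM. The difference between the IHC groups was under the fold required in each of these genes, although Alg8 and Emid1 were called higher after median ratio scaling (log2 fold changes of 1.14 and 1.16).

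Families of the members that the study's themes touch were followed in their other genes, from lists drawn up with results of these data known. At 9 months the median log2 fold change of OHC over IHC libraries was -0.93 over all 15335 genes tested, of which 17.3% were called higher and 48.5% lower. After scaling each library by its median ratio to the others, the median was -0.20 and 4011 genes were higher and 5113 lower, so that family counts at 9 months are given under both. Of 13 KLF genes other than Klf12, 4 were higher and 4 lower in 9m OHC than in 9m IHC, and 5 and 3 after scaling. At 26 months, where 29% of all genes were higher and 34.4% lower, 4 were higher and 4 lower of 14. Klf13, for example, had 2.16, 0.931, 35.4 and 28.2 RPKM, the opposite order to Klf12. Between the IHC groups 2 KLF genes were higher and 5 lower in 26m IHC, among the latter Klf5 with 41.9 and 3.63 RPKM.

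Of 4 other SSBP and LDB genes tested at 9 months, 1 was higher and 2 were lower in OHC libraries, and 1 and 1 after scaling. At 26 months 1 was higher and 1 lower of 5. Ssbp1, the mitochondrial one, had 7.81, 9.97, 23.8 and 21.8 RPKM, and Ssbp3 had 4.81, 8.39, 2.12 and 8.22. The lowest OHC group mean of the 4 genes tested at 9 months was 1.83 RPKM (Ssbp2 in 9m OHC). Of 23 other genes of the Rag GTPases and their regulators, 4 were higher and 9 lower in 9m OHC, and 8 and 7 after scaling. At 26 months 7 were higher and 5 lower in OHC libraries. Rraga, the closest relative of Rragb, had 17.7, 16.4, 13.3 and 16.9 RPKM, so that it was not near 0 in any group. Wdr24, of the GATOR complex, had 10.1, 10.4, 0.0535 and 5.83, which is near 0 in 9m OHC alone.

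Of the other ceramide synthases, Cers2 had 78.3, 94.7, 25.1 and 44.6 RPKM and Cers5 72.2, 50.1, 22.7 and 27.1. Of the 5 tested at 9 months, 4 were lower and 0 higher in OHC libraries, and after scaling 1 of 4 was lower and 0 higher. At 26 months 2 were lower and 2 higher of 5. Of 10 other inositol phosphate kinases, 7 were lower and 0 higher in 9m OHC, and 5 and 2 after scaling. At 26 months 2 were lower and 2 higher of 9. Between the IHC groups 4 of them were lower in 26m IHC and 0 higher, under either scaling, among them Ip6k3 with 37.0 and 0.286 RPKM. Itpkb had 1.06, 0.263, 1.85 and 7.08 RPKM, highest in the OHC groups, in which Itpkc was near 0. Of 13 other genes of mitotic separation, 0 were higher and 1 was lower in 26m IHC than in 9m IHC. Cdc20, an activator of the anaphase-promoting complex, had 2.28, 1.18, 0 and 0 RPKM and missed the rule in 26m IHC, and Bub3, a partner of Bub1b, had 19.3, 13.8, 11.2 and 16.9. The other 12 lists of gene function, such as autophagy, lysosomal enzymes, hair bundle and ribbon synapse genes, held no member.

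Promoters from 250 bases before to 50 bases after the start were found in RefSeq (GRCm38.p6) for 42 members. Motifs were searched on both strands. The GC box GGGCGG occurred in 34 of them (81.0%), in 71.6% of 6419 other genes at 2 RPKM or more in both IHC groups and in 38.2% of all 27025 genes with a promoter in the table. The E-box CACGTG occurred in 16.7%, 12.5% and 8.09%, the CCAAT box in 33.3%, 44.5% and 41.1%, and TATAAA in 9.52%, 7.43% and 15.7%. The ETS motif CCGGAAG occurred in 19.0%, 24.2% and 9.93%, and the CRE TGACGTCA in 1 member (2.38%), 4.08% and 2.03%. No motif is contained in another, though neighboring matches can share end bases, and a match is only a match of letters. The median GC content of the promoters was 62.8% in the members, 61.3% in the other genes of the IHC groups and 52.8% in all genes. The members were thus close to the other genes of the IHC groups in these features. The 250 bases before the start of the members that the study names are shown with GC boxes (of either strand) and E-boxes in capitals, on the minus strand for Klf12 (chr14:100149797-100150046) and Ssbp4 (chr8:70608315-70608564) and the plus strand for Rragb (chrX:153139708-153139957).
Klf12: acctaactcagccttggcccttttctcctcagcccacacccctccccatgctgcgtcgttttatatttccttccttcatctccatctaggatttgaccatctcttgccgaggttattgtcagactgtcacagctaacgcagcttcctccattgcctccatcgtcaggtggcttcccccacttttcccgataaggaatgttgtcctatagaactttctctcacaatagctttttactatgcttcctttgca
Ssbp4: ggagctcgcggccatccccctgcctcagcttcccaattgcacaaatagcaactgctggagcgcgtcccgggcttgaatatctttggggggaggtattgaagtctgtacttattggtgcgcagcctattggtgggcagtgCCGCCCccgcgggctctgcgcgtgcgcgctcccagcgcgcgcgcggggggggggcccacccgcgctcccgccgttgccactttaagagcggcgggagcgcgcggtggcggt
Rragb: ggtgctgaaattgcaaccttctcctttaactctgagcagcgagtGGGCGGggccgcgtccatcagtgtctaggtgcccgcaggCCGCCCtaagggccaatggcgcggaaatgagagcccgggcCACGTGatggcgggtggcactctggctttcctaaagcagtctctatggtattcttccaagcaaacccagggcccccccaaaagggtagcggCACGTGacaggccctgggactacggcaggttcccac

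Of these 3 promoters, that of Klf12 held none of the motifs in capitals, that of Ssbp4 held 1 GC box and that of Rragb held GC boxes and E-boxes. Members alike in their low OHC values thus differed in these letters.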

How the data were processed

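Hair cells were collected in 4 labelled groups of 4 libraries, amplified with a SMARTer kit and sequenced as paired reads. Per the labels and the study's methods, the authors mapped reads with CLC Genomics Workbench to GRCm38 (mm10) and deposited RPKM for 49585 genes. The version, strand use and treatment of reads that fit several genes are not given in the sources used here. No counts were used for tests, because reads recovered from the RPKM steps were whole (within 0.001) for only 74.8% of detected genes.

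The members, gene lists and tests were chosen with earlier results of these data known. Gene models and shared windows came from GENCODE vM21, promoters from RefSeq (GRCm38.p6). Libraries that differed by about sampling noise were averaged. Comparisons used limma 3.58.1 (trend) in R 4.3.3 on log2(RPKM + 0.1), keeping genes that averaged at least 0.1 RPKM in 1 of 2 groups. Calls needed an adjusted p (Benjamini-Hochberg, over all genes tested) no higher than 0.1 with a log2 change of 1 or beyond, up or down. Fold changes of low genes are understated on this scale. The fits were tested on simulated data with 200 changed genes. Tables were made in Python 3.11.15. Alternatives concerned the thresholds, scaling, pseudocount, filter, replicates and window length.

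Genes were named by fixed rules: those the study's text names, the 10 members with the highest lower IHC mean, the 3 nearest each threshold on either side, up to 4 per list, the 10 whose partners were highest in OHC libraries, the 5 largest rises and falls called between the IHC groups, and the 3 longest and shortest. Other members and family genes were named after their values were seen.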

Additional observations from a re-analysis of the deposited data

How the results depend on the processing

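The number of genes that met the rule was 55. It was 42 after median ratio scaling, 54 with libraries 1 and 2 of each group and 53 with libraries 3 and 4, and 52 to 55 without each library number in turn. Of the 55 genes, 42 remained after scaling and 51 with either pair of libraries. An OHC limit of 0.05 RPKM gave 44 genes and one of 0.2 gave 70, and 39 genes met the limits in each library. An IHC minimum of 1 RPKM gave 136 genes and one of 4 RPKM gave 16. By alternatives chosen after seeing the data, 278 genes met the rule on 9m IHC and 26m OHC alone and 477 on 26m IHC and 9m OHC alone. A pseudocount of 1 lowered the calls from 5138 to 2286 between the IHC groups, from 7367 to 4197 between the OHC groups, from 10085 to 6302 at 9 months and from 10185 to 6410 at 26 months. A filter of 1 RPKM left 3096 calls between the IHC groups, with fewer genes tested. The calls among members stayed at 9 higher and 1 lower under each of these. Over the alternatives they ranged from 9 higher and 1 lower to 13 and 1, with Alg8, Emid1, Gm9922 and Pakap added by median ratio scaling, 3 of them (not Pakap) by quantile normalization, Gm9922 without library 4, and Gm9922 higher and 3110070M22Rik lower without library 1. The causes of these shifts were not tested. The 10 called members kept their call in all 17 alternatives. Klf12, not called, had a log2 fold change of -0.017 without averaged sample 1 of 26m IHC. Among the 29 members with neither shared windows nor an exon overlap, 6 were called, against 16.2% of the 8272 genes at 2 RPKM or more in both IHC groups.

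The replicate block gave 5150 calls between the IHC groups and 9 higher and 1 lower members, and 7382, 10096 and 10197 calls in the other comparisons. Same-numbered libraries of different groups correlated in their deviations at 0.083 to 0.289, and 16 of 48 correlated best with their own number. Libraries of the same averaged pair but another number correlated at 0.137 to 0.310, and libraries of different pairs at -0.332 to -0.094. The averaged samples of different groups, of both ages and cell types, thus deviated together. The labels do not give a factor shared in this way, and its source was not tested. The spread between averaged samples holds this shared part. The block changed no call among the members.

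The shorter length of members held for the longest transcript (2258 against 3141 bases), and their larger share with 20% of windows shared held for 50-base (32.7% against 13.4%) and 100-base windows (27.3% against 10.5%). Exon overlap on either strand was 36.4%, against 36.2% of the other genes and 36.5% of those under 5 RPKM, and overlap on the same strand 20%. No group allowed a test for outlying samples, with n = 2. Depth limits OHC values: by the recovered lengths, a member had a median of 3 reads over 8 libraries.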
